A study of Homo sapiens with 2 samples.

Results

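The genes described here encode 10 enzymes of glycolysis and lactate formation: GPI, ALDOA, TPI1, GAPDH, PGK1, PGAM1, ENO1, PKM, LDHA and LDHB. They were taken by symbol from the table of read counts per transcript model of GM12878, an established human lymphoblastoid line that grows through Epstein-Barr virus, and they are 10 of the 16645 annotated genes with a read. Their rows comprise 1287 of the 237608 transcript models in the table. Depleted RNA (of what, the labels do not say) was read as native strands by Oxford Nanopore direct RNA sequencing in 2 replicate libraries. They form 1 group, for which the labels name no treatment, and each read starts at the 3′ end of a strand. The labels do not say whether the libraries came from separate cultures, so the tests below compare the reads of these libraries and may measure technical spread. Replicate 1 held 1360368 reads and replicate 2 held 1510998, so that 1 read was worth 0.735 and 0.662 CPM, the unit of reads scaled to the library total used below. All 8 B cell markers examined were read, with means from 43.0 CPM for PAX5 to 7927 CPM for CD74. The 14 markers of T cells, monocytes, erythroid cells, fibroblasts, hepatocytes and muscle were each at or below 7.13 CPM on average, and 8 of them had no read.

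Glycolysis splits glucose into pyruvate in the cytosol and yields ATP without oxygen. Lactate dehydrogenase then turns pyruvate into lactate and renews the NAD that the GAPDH step consumes. Growing lymphoblasts are known for high glycolytic flux. The last enzyme of the pathway, pyruvate kinase, is made from PKM in an M1 and an M2 form, which differ by a pair of mutually exclusive exons; proliferating cells are known mainly for the M2 form.

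The 10 genes received 28417 reads in replicate 1, or 2.09% of the library (95% Wilson interval 2.07 to 2.11%), and 34413 reads in replicate 2, or 2.28% (2.25 to 2.30%). Their mean share was 2.18% ± 0.133 (SD, n = 2). GAPDH alone held 41.7% and 43.1% of these reads. Intervals here and below cover counting error only.

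In the order of the pathway, GPI, which isomerises phosphorylated glucose to the fructose form, had 494 CPM in the first library (replicate 1) and 542 CPM in the other (replicate 2), a mean of 518 ± 34.0 (SD, n = 2). ALDOA, the aldolase that splits fructose bisphosphate into triose phosphates, had 1142 and 959 CPM, a mean of 1051 ± 130 (SD, n = 2). TPI1, which interconverts the triose phosphates, had 1353 and 1501 CPM, a mean of 1427 ± 105 (SD, n = 2). Among these genes of the preparatory steps, GPI was the lowest and TPI1 the highest in both libraries, without overlap, on the reads given to each gene. With the reads of AC093512.2 added, an overlapping gene described below, ALDOA stood at 1656 and 1606 CPM, above TPI1 in both libraries.

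GAPDH, which oxidises glyceraldehyde phosphate, had 8721 and 9824 CPM, a mean of 9273 ± 780 (SD, n = 2), and ranked 4 among all genes by mean level. PGK1, the first enzyme of the pathway to make ATP, had 467 and 706 CPM, a mean of 586 ± 169 (SD, n = 2). PGAM1, which moves the phosphate of phosphoglycerate, had 1128 and 1231 CPM, a mean of 1179 ± 73.1 (SD, n = 2). Levels of consecutive steps were therefore unequal, with GAPDH far above its neighbours TPI1 and PGK1 in both libraries.

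ENO1, the enolase that forms phosphoenolpyruvate, had 2850 and 3091 CPM, a mean of 2970 ± 170 (SD, n = 2). PKM had 2479 and 2481 CPM, a mean of 2480 ± 1.70 (SD, n = 2). The lactate dehydrogenase subunit genes followed: LDHA had 1336 and 1528 CPM, a mean of 1432 ± 136 (SD, n = 2), and LDHB had 920 and 912 CPM, a mean of 916 ± 5.91 (SD, n = 2). LDHA exceeded LDHB in both libraries.

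By CPM, in which a read stands for 1 RNA strand, the order was GAPDH, ENO1, PKM, LDHA, TPI1, PGAM1, ALDOA, LDHB, PGK1 and GPI. The ranges of the 2 libraries overlapped between LDHA and TPI1, between PGAM1 and ALDOA, and between PGK1 and GPI, so these neighbours could not be ordered. The place of ALDOA, here and per kilobase below, rests on the reads given to ALDOA itself. With those of AC093512.2 added its mean was 1631 CPM, above that of LDHA. Divided by the length of the main coding model, the level per kilobase put GAPDH (4945 CPM per kilobase), ENO1 (1668) and PKM (1070) first again. The main coding model was the most read annotated model with a complete coding sequence. In PKM no such model held a read, and the annotated PKM-202 (2318 bases) was used instead. On that scale LDHB, ALDOA, PGAM1 and LDHA followed TPI1 with overlapping ranges between neighbours, and GPI and PGK1, whose models are the longest, stood last at 124 and 120 CPM per kilobase.

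**Figure D1:**
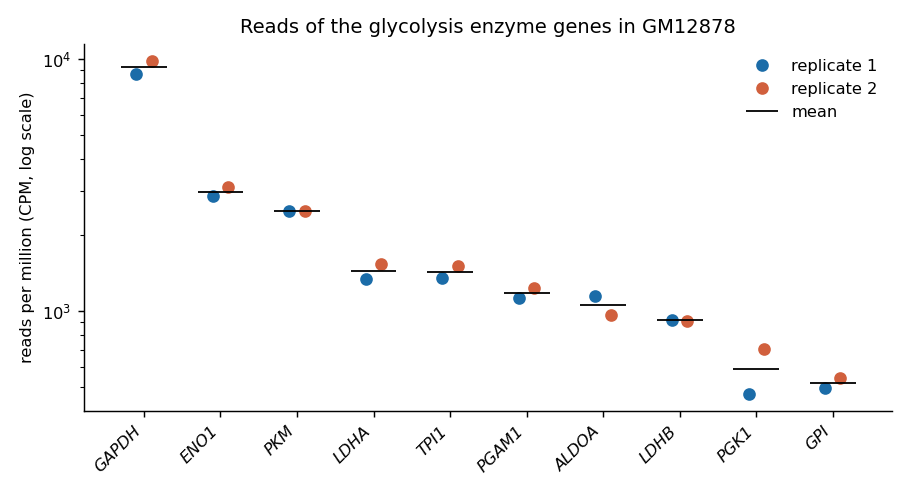
Level in CPM on a log axis for each glycolysis enzyme gene, with a point per replicate and a line at the mean of the 2 replicates. GAPDH stands at 8721 and 9824 CPM, above all other genes plotted, and PGK1 shows the widest gap between replicates in relation to its level, at 467 and 706 CPM.

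Whether the libraries held these genes in equal amounts was asked of each gene by an exact binomial test, two-sided, of its reads against the library totals, adjusted by Benjamini-Hochberg over 10634 genes with at least 10 reads. The share of all genes past an adjusted p of 0.05 was 5.05%, made up of 2.72% higher in replicate 2 and 2.33% lower there. That share grows with the number of reads: it was 9.62% over the 6105 genes with at least 50 reads, and 42.5% (21.4% higher and 21.1% lower) among the 318 genes with at least 500 reads in each library, to which all 10 glycolysis genes belong. Of the 10 glycolysis genes, 6 passed: GAPDH, ENO1, LDHA, TPI1 and PGK1 were higher and ALDOA was lower in replicate 2. The median log2 ratio of replicate 2 to replicate 1 was 0.13 over the 10 genes and 0.01 over all genes tested. For genes read this deeply, a pass is thus common in either direction.

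PGK1 had the largest difference, with 635 and 1067 reads, a log2 ratio of 0.60 (95% exact interval 0.45 to 0.74; adjusted p = 1.80e-14, exact binomial test). GAPDH had 11864 and 14844 reads, a log2 ratio of 0.17 (0.14 to 0.21; adjusted p = 1.25e-19, exact binomial test), a small difference measured on many reads. LDHA, with 1817 and 2309 reads, had a log2 ratio of 0.19 (0.10 to 0.28), TPI1, with 1840 and 2268 reads, one of 0.15 (0.06 to 0.24), and ENO1, with 3877 and 4670 reads, one of 0.12 (0.06 to 0.18). The ratios of PGAM1 (0.13, 0.03 to 0.22), GPI (0.13, -0.02 to 0.28), PKM (0.00, -0.07 to 0.07) and LDHB (-0.01, -0.12 to 0.10) did not pass. Apart from PGK1, the fold between libraries was thus small beside the differences in level between the genes.

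These directions depended on which models were counted. With reads in known models only, that is, models that match an annotated transcript, 5 of the 10 genes passed, 1 higher (PKM) and 4 lower (GAPDH, ENO1, PGAM1 and ALDOA), in place of 5 higher and 1 lower. GAPDH then had a log2 ratio of -0.16, ENO1 -0.40, PGK1 -0.09, TPI1 -0.17 and PGAM1 -0.30, all with the opposite sign, and that of PKM became 1.19. LDHA (0.08; adjusted p = 0.396, exact binomial test), TPI1 (adjusted p = 0.0529, exact binomial test) and PGK1 (adjusted p = 0.671, exact binomial test) no longer passed. The median ratio of all genes was also lower on known models, at -0.26. Over all genes the split was 289 higher and 248 lower with all models, 324 higher and 718 lower with known models only, and 300 higher and 423 lower without genomic models, where the 10 genes split 4 to 2. With genomic models left out the ratio of PGAM1 was -0.25 and that of PKM -0.08, LDHB turned to 0.06, and ENO1 no longer passed (adjusted p = 0.0611, exact binomial test). With DESeq2 size factors TPI1 no longer passed (adjusted p = 0.0515, exact binomial test), and the ratio of PKM, close to 0, was -0.01.

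**Figure D2:**
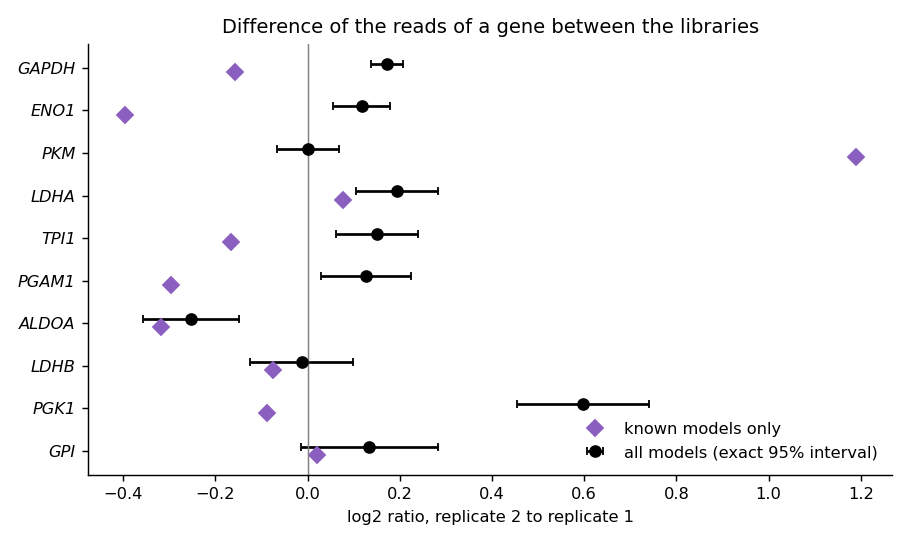
Log2 ratio of replicate 2 to replicate 1 for each gene, with all models counted (black points with exact 95% intervals) and with known models only (purple diamonds). With known models only GAPDH, ENO1, PGK1, TPI1 and PGAM1 lie on the other side of 0, and PKM moves to 1.19.

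The lower count of ALDOA in replicate 2 was not seen when the reads of an overlapping gene were added. AC093512.2, an annotated protein-coding gene on the same strand (chromosome 16, 30053090 to 30070420, GRCh38), spans ALDOA (30064164 to 30070457), and 3 of its annotated models share 7 of the 8 splice junctions of ALDOA-209, and 2 of them share all 8 of ALDOA-206, so a read that stops before the 5′ end can belong to either gene. AC093512.2 had 699 and 977 reads, a log2 ratio of 0.33 (adjusted p = 0.000217, exact binomial test), whereas ALDOA had 1554 and 1449 reads, a log2 ratio of -0.25 (adjusted p = 0.000116, exact binomial test). Of the reads given to AC093512.2, 91.1% and 96.1% were in incomplete models and at most 0.143% in known ones. For the 2 genes together the counts were 2253 and 2426, or 1631 CPM ± 35.8 (SD, n = 2), with a log2 ratio of -0.04 (adjusted p = 0.706, exact binomial test). Other overlapping genes of the 10 had at most 22 reads in a library.

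Each model in the table carries a category. Beside known models there are incomplete splice matches (ISM), which carry a run of the junctions of a longer model, models with a new combination of known splice sites (NIC), models with a new splice site (NNC), and genomic models, which lie within a gene but follow none of its splicing. Known models held 60.2% (replicate 1) and 41.3% (replicate 2) of the reads of the 10 genes, with a mean of 50.7% ± 13.4 (SD, n = 2), and the libraries as a whole stood at 55.9% and 45.9%. ISM models held 29.6% and 45.9%, genomic models 4.47% and 9.30%, NIC models 2.82% and 1.47%, and NNC models 2.88% and 2.03%. The known share of the glycolysis genes thus fell by more between the libraries than that of all reads.

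Gene by gene, the known share was compared with Fisher's exact test over the 6340 genes with at least 20 reads in each library. Across these genes 27.1% passed an adjusted p of 0.05, 26.9% with a lower and 0.268% with a higher known share in replicate 2, and the median difference was -8.62 percentage points. With a minimum of 100 reads in each library 61.2% passed (60.4% lower and 0.837% higher), and among the 318 genes with at least 500 reads in each library 74.2% passed (73.3% lower and 0.943% higher), with a median difference of -8.77 percentage points. All 10 glycolysis genes passed, 9 with a lower known share and PKM with a higher one, and their median difference was -19.7 percentage points. They started from a higher share: their median was 62.2% in replicate 1 and 39.7% in replicate 2, against 32.5% and 17.5% over all genes tested. Ranked from the largest fall among all genes tested, the differences of the 9 lay between percentile 5.17 (PGK1) and percentile 36.7 (GPI).

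ALDOA had the highest known share, 87.4% in replicate 1 and 68.5% in replicate 2 (adjusted p = 2.91e-34, Fisher's exact test). With the reads of AC093512.2 added, its known share was 60.3% and 40.9%. LDHA followed with 69.6% and 52.6%, LDHB with 68.8% and 54.1%, and GAPDH with 67.9% and 44.3%. ENO1 had 63.5% and 36.5%, PGAM1 60.95% and 37.3%, TPI1 60.1% and 39.6%, PGK1 57.3% and 29.2%, and GPI 52.5% and 39.8%. In these 9 genes every value of replicate 2 lay below that of replicate 1, with Wilson intervals that did not overlap, and the fall was largest in PGK1, by 28.1 percentage points. PKM stood apart at 10.4% (9.42 to 11.5%) and 19.5% (18.2 to 20.8%), a rise of 9.06 percentage points (adjusted p = 6.63e-25, Fisher's exact test).

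**Figure D3:**
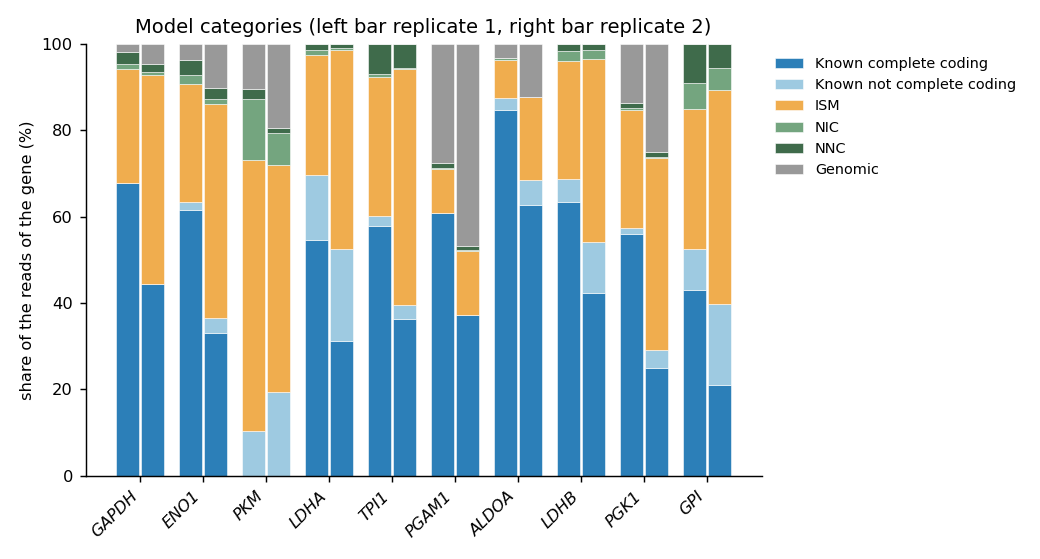
Share of the reads of each gene by model category, with replicate 1 as the left and replicate 2 as the right bar; dark blue marks known models annotated with a complete coding sequence and light blue the other known models. In 9 genes the dark blue part is shorter in replicate 2, and PKM has none in either library.

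Some known models are not complete messages. Known models annotated with a complete coding sequence held a lower share of the gene's reads in replicate 2 in the same 9 genes, each past Fisher's exact test. PKM had no such read, because none of its 8 complete coding models was among the known models analysed. Models of 11 exons under other categories held 1531 and 777 PKM reads. The absence therefore gives no limit on the amount of full-length PKM message. Of all genes 29.8% passed this test, 29.8% with a lower and 0.0473% with a higher share, and of the 318 deeply read genes 75.8% passed. The complete coding share of PGK1 was 55.9% and 24.9%, and that of ENO1 was 61.5% and 33.2%. Among the known models of the 10 genes with at least 20 reads, 13 were annotated with a complete coding sequence and 13 as a retained intron or a processed transcript without a coding sequence. All 13 coding models had a lower level in replicate 2, with a median log2 ratio of -0.59. Of the 13 others, 12 had a higher level, with a median of 0.97. These ratios were not tested one by one, and the same split was not computed for the models of all genes. Over all genes tested, the complete coding share was higher in replicate 2 in only 6.81%, with a median difference of -9.29 percentage points, so the direction is not particular to these genes. In 11 of the 13 others the splice junctions are also the last junctions of a coding model of the gene, so reads of the coding message that stop in the matching exon cannot be told apart from them. GPI-203, of 1 exon, is not among the 11 because it has no junction to compare.

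The largest change in the make-up of known reads was that of GPI. GPI-220, the model of 18 exons and 4194 bases, had 289 and 169 reads, 43.0% and 20.6% of the gene, whereas GPI-203, a single exon of 3053 bases annotated as a retained intron, had 47 and 114 reads. GPI-203 held 100% and 99.1% of the GPI reads in models of 1 exon. Whether its reads are a message of their own or unspliced parts of other RNA was not tested. GPI-220 held 81.9% of the known reads in replicate 1 and 51.8% in replicate 2 (adjusted p = 4.12e-15, Fisher's exact test over 1878 genes). In LDHA, LDHA-205 had 826 and 573 reads, and the retained-intron models LDHA-216 and LDHA-202 had 122 and 267 reads and 144 and 220 reads. LDHA-205 held 65.3% and 47.2% of the known reads. The shares of known reads under these model names therefore differed between the libraries by more than counting error. The junctions of LDHA-216 and LDHA-202 are also the last junctions of 5 and 4 complete coding models, LDHA-205 among them. Reads of LDHA-205 that stop early could carry their names, so a difference in the use of models cannot be read from these shares.

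The most read known model held a smaller part of the known reads in replicate 2 in 9 of the 10 genes. Of these, 8 passed a test that 12.5% of all genes passed (11% with a lower and 1.44% with a higher share). Among the 239 genes with at least 300 known reads in each library, as all 10 have, 38.5% passed (36% lower and 2.51% higher). The shares were 92.1% and 77.7% for LDHB-201, 97.5% and 85.3% for PGK1-201, 96.9% and 90.9% for ENO1-201, and 95.9% and 91.4% for TPI1-201. GAPDH-201 held 77.9% and 75.3%, and ALDOA-209 held 67.2% and 59.8%. PGAM1-201, with 935 and 692 reads, held nearly all known reads of PGAM1 in both libraries and did not pass. PKM, whose most read known model is PKM-214, did not pass either (49.0% and 53.4%; adjusted p = 0.524, Fisher's exact test).

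The coding models of 3 genes differ in their first exon and encode the same number of coding bases. In ALDOA, ALDOA-209 starts at position 30065673 and ALDOA-206 at 30064274 of chromosome 16, with distinct first splice sites and 1092 coding bases each. Of the reads of this pair, ALDOA-209 held 69.7% (67.2 to 72.2%) and 66.1% (62.9 to 69.1%) in replicates 1 and 2, with a mean of 67.9% ± 2.58 (SD, n = 2), and the Wilson intervals overlapped. The difference between the libraries did not pass (p = 0.077, Fisher's exact test, adjusted over the 3 pairs, which were chosen after their values were seen). Since all junctions of ALDOA-206 also occur in models of AC093512.2, reads of ALDOA-206 that stop early could be counted for that gene.

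In GAPDH, GAPDH-201 (9 exons, first exon from 6533927 to 6534569 on chromosome 12) and GAPDH-204 (8 exons, first exon from 6534754 to 6534861) both have 1005 coding bases. GAPDH-201 had 6272 and 4953 reads and GAPDH-204 had 1746 and 1600 reads. GAPDH-201 held 78.2% (77.3 to 79.1%) and 75.6% (74.5 to 76.6%) of the reads of the pair (p = 0.000506, Fisher's exact test, adjusted over the 3 pairs). In LDHA, LDHA-205 held 83.5% and 79.8% of its pair with LDHA-220, which did not pass (p = 0.077, Fisher's exact test, adjusted likewise). In both genes the junctions of the shorter model are the last junctions of the longer one, so that reads of GAPDH-201 or LDHA-205 that stop in the second exon would carry the name of the shorter model.

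Models were next compared by their number of exons. For ISM suffix models this number gives the reach from the 3′ end, but not for ISM prefix models, which keep the 5′ end and held 33.0% and 17.4% of the reads of PKM. With genomic models left out, the share of reads in models with at least as many exons as the main coding model was lower in replicate 2 in all 10 genes. This measure was computed for the 10 genes only, so how common such a fall was over all genes is not known. The share was highest in ALDOA, at 87.9% and 71.2%, and in PGAM1, whose model has 4 exons, at 85.5% and 71.7%. Both places depend on which reads were left out. Genomic models held 27.6% and 46.9% of the reads of PGAM1, and reads of ALDOA that stop early can be counted for AC093512.2. In LDHA, LDHB and TPI1 the main model of 1 exon is an ISM model and was kept. ENO1 stood at 68.5% and 40.4% for 12 exons, PGK1 at 66.4% and 34.5% for 11 exons, LDHB at 66.5% and 45.1% for 8 exons, and TPI1 at 65.0% and 42.0% for 7 exons. GAPDH had 57.9% and 37.6% for 9 exons and LDHA 48.0% and 26.0% for 8 exons. These 2 genes also have coding models with fewer exons, GAPDH-204 with 8 and LDHA-220 with 7, whose complete reads fall short of these numbers. At least 8 exons were reached by 74.4% and 50.3% in GAPDH, and at least 7 by 57.8% and 33.0% in LDHA. The lowest values in replicate 2 were those of GPI, at 51.5% and 25.6% for 18 exons, and PKM, at 50.8% and 25.9% for 11 exons. The number for PKM is that of PKM-202, a model without reads of its own.

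The share fell gradually with the number of exons in ENO1 and GPI. In ENO1, 91.2% of reads (replicate 1) and 78.8% (replicate 2) were in models with at least 5 exons, and 76.9% and 52.2% in models with at least 9. In GPI, 84.2% and 69.7% had at least 5 exons, and 71.4% and 48.1% at least 10. In GAPDH the first drop came between 2 and 3 exons, where the share went from 100% to 89.5% in replicate 1 and to 79.4% in replicate 2. The model behind it was an ISM suffix model of 2 exons, one that keeps the 3′ end, with 1196 and 2854 reads, the most read GAPDH model that is not known. The read-weighted mean model length was shorter in replicate 2 in all 10 genes, by 37.0 bases for PGAM1 and, at the other end, from 3614 to 2417 bases for PGK1. Mean length was likewise not computed over all genes.

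**Figure D4:**
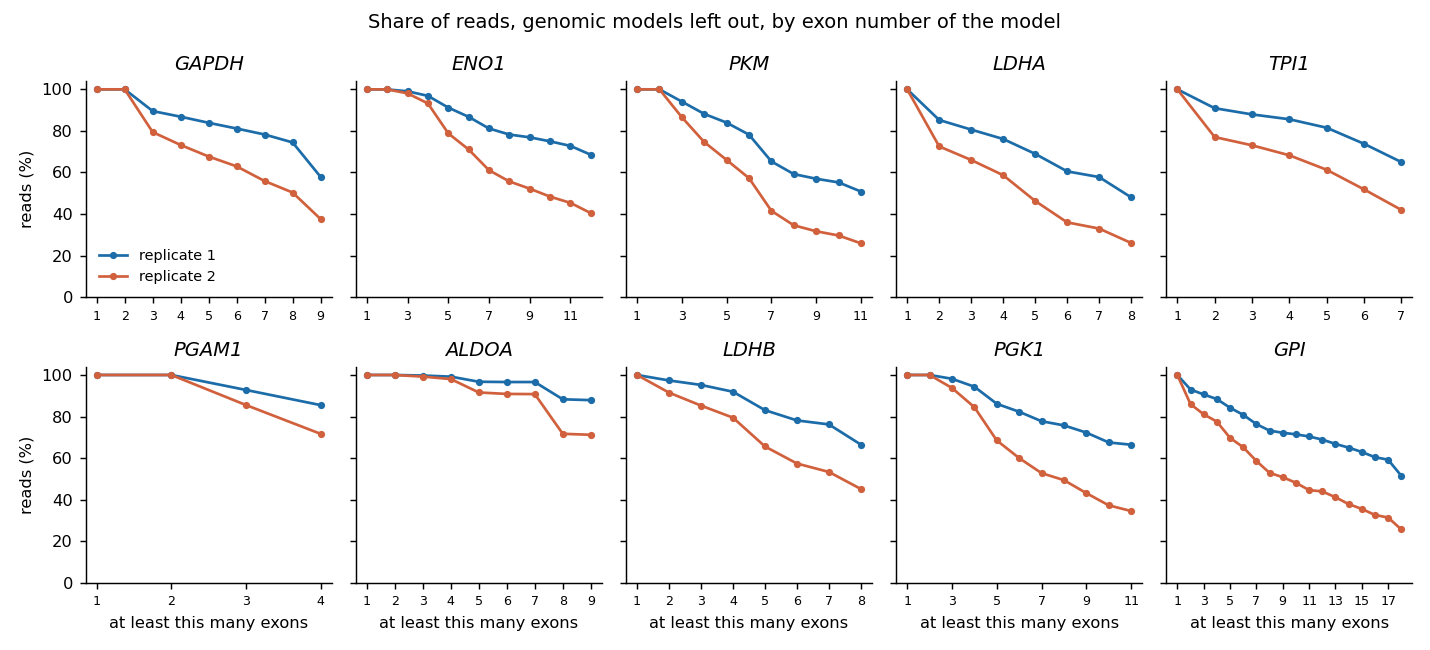
Share of the reads of each gene, genomic models left out, in models with at least the number of exons on the x axis, up to the exon number of the main coding model. The curve of replicate 2 ends below that of replicate 1 in each gene, at 25.9% against 50.8% in PKM.

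Reads without any splice junction fell into 1 main model per gene, but the category of that model differed. It was genomic in GAPDH (209 and 677 reads), ENO1 (146 and 467), PKM (349 and 729), PGK1 (77 and 252), ALDOA (51 and 178) and PGAM1 (423 and 870). The genomic model of ENO1 is listed with a length of only 8 bases, for which no reason is given. The others are listed with 385 (ALDOA) to 3824 bases (GAPDH). The main model was an ISM model in LDHA (267 and 634 reads), TPI1 (160 and 516) and LDHB (33 and 117), and in GPI it was the known model GPI-203. Comparisons of the genomic or ISM share between these genes therefore compare unlike models.

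Counted over all categories, models of 1 exon took 27.6% of the reads of PGAM1 in replicate 1 and 46.8% in replicate 2, the highest values of the 10 genes, and 1.76% and 4.56% in GAPDH, the lowest. LDHA had 14.7% and 27.5%, PGK1 13.7% and 25.0%, TPI1 9.08% and 23.0%, PKM 10.4% and 19.6% and GPI 6.99% and 14.0%. ENO1 had 3.79% and 10.1%, ALDOA 3.28% and 12.3%, and LDHB 2.64% and 8.56%. The single-exon share was higher in replicate 2 in all 10 genes, and all 10 passed Fisher's exact test, which 19.9% of all genes did (19.8% with a higher and 0.0315% with a lower share). The median difference was 9.06 percentage points over the 10 genes and 7.32 over all genes tested. The share itself was low in these genes: its median was 8.04% and 16.8% over the 10, against 22.2% and 36.4% over all genes tested. Of the 10 only PGAM1 lay above the medians of all genes. Among the 318 deeply read genes 57.9% passed, all with a higher share, and the median difference was 2.40 percentage points.

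PKM (chromosome 15, 72199029 to 72231822, minus strand, GRCh38) was examined for its M1 and M2 forms. Exon 9 marks M1 and exon 10 marks M2; both have 167 bases, and they are shown because their equal length means that the length of a model cannot tell the forms apart. The sequences are from the GENCODE release 29 transcripts PKM-201 and PKM-202, 5′ to 3′ on the messenger strand, and capitals mark the 62 positions at which they differ.
PKM exon 9, chr15:72203022-72203188: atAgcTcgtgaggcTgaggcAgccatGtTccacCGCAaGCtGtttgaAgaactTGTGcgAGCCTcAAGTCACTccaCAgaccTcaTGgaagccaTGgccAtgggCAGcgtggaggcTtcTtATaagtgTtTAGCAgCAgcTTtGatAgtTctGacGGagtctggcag
PKM exon 10, chr15:72202454-72202620: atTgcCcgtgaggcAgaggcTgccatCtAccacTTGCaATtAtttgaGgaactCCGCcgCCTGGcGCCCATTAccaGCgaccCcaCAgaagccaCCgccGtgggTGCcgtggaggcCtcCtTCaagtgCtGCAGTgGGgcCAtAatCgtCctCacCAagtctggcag
They are identical at 105 positions, 62.9% of the exon. Each is joined to exon 11, and the last bases before that junction (lower case) and the first of exon 11 (capitals) are nearly alike.
Exon 9 to exon 11: ggagtctggcagGTCTGCTCACCA
Exon 10 to exon 11: caagtctggcagGTCTGCTCACCA

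The annotation holds 25 PKM models, of which 8 have a complete coding sequence, and none of these 8 was among the known PKM models analysed here. The known models with reads were 6, and all 6 are annotated as retained introns. PKM-214, of 2 exons, had 172 and 390 reads, and PKM-212, of 3 exons, had 162 and 324 reads. PKM-211 had 14 and 11 reads, PKM-206 had 1 and 3, PKM-221 had 2 and 1, and PKM-209 had 0 and 1. PKM-214 and PKM-212 held nearly all known reads of the gene, and both had more reads in replicate 2. A share of M1 and M2 among known models, as planned, could not be formed, because none of the 6 models has exon 9 or exon 10 as an exon of its own.

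Models with 11 exons, the number of PKM-202 and PKM-201, held 1531 reads in replicate 1 and 777 in replicate 2, in 95 models. The most read, ENCODEHT000369571, has 2290 bases and is marked as an ISM prefix model, one that keeps the 5′ end. It had 1052 reads, 31.2% of the gene (29.7 to 32.8%), in replicate 1 and 541 reads, 14.4% (13.3 to 15.6%), in replicate 2. The NIC models ENCODEHT000369647 and ENCODEHT000369694 had 160 and 93 reads and 95 and 38 reads; these were named after their values were seen. ISM prefix models thereby took 33.0% and 17.4% of PKM reads, against at most 2.08% in any other of the 10 genes. Without coordinates in the table, these models of 11 exons could not be assigned to M1 or M2. Of the annotated PKM models only PKM-215 has more than 11 exons: it has 12, with exon 9 and without exon 10. Whether the ISM prefix label of ENCODEHT000369571 refers to PKM-215 or to a model outside the annotation is not given.

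One bound on M1 could be drawn from models with 3 exons. PKM-212 has the junction from exon 10 to exon 11 and its last junctions are those of 3 complete coding models with exon 10, so M2 reads that stop in exon 10 would carry its name. The first exon of PKM-212 itself spans exon 9, the intron and exon 10, and reads with the intron would carry the same name. No annotated model of 3 exons has the junction from exon 9 to exon 11, so M1 reads of that extent would be ISM models. All 10 ISM models of 3 exons together had 14 reads in replicate 1 and 34 in replicate 2, against 162 and 324 for PKM-212. They made up 7.95% (4.80 to 12.9%) and 9.50% (6.88 to 13.0%) of the reads of both, a mean of 8.73% ± 1.09 (SD, n = 2). Restricted to the 2 suffix models, the values were 4.71% (2.40 to 9.01%) and 4.99% (3.14 to 7.84%). Among PKM reads of 3 exons, those that could be M1 were thus fewer than those with the exon 10 junction in both libraries, at a depth of 176 and 358 reads. This comparison was chosen after the counts had been seen.

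**Figure D5:**
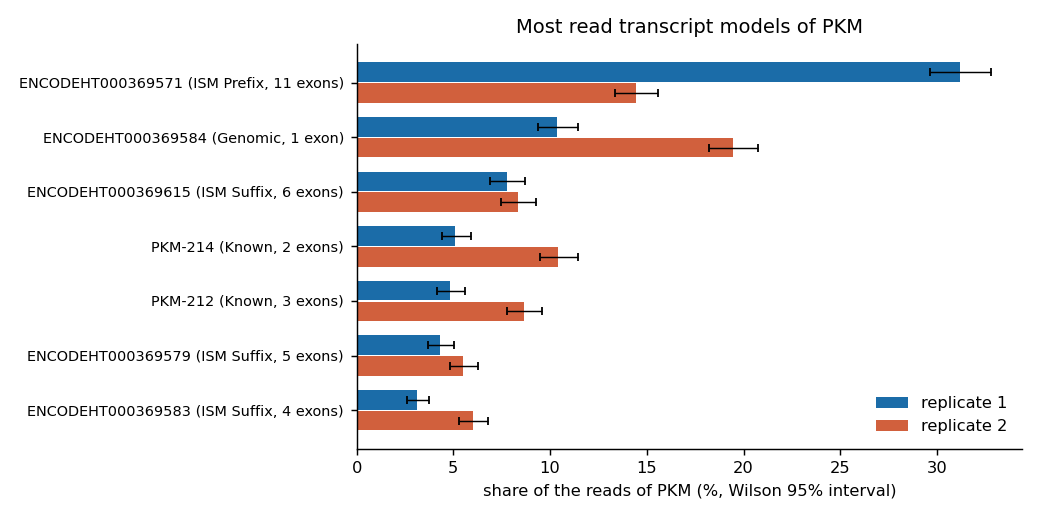
Share of PKM reads in each of its 7 most read models, with bars per replicate from 0 and Wilson 95% intervals. The model of 11 exons falls from 31.2% to 14.4%, while the 6 other models, of 1 to 6 exons, have higher shares in replicate 2.

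Most genes of the set had few reads in models with new splicing. PKM had the highest NIC share, 14.1% and 7.34%, and GPI the highest NNC share, 9.08% and 5.62%. In TPI1 the NNC share was 6.96% and 5.51%, mostly from ENCODEHT000598568, a model of 7 exons and 1346 bases with 103 and 98 reads, named after its values were seen. In ALDOA the NIC and NNC models together had 5 reads and 1 read. In 8 of the 10 genes, all but PGK1 and ALDOA, the NIC and the NNC share were each lower in replicate 2, as they were over all reads of the libraries; these differences were not tested.

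Copies of these genes in the genome took few reads. GENCODE lists 100 pseudogenes under the symbols of the 10 genes, 62 of them for GAPDH. Of these 9 had a read, with 40 and 47 reads in all, or 0.141% and 0.137% of the reads of the 10 genes. TPI1 had the highest ratio, with 21 and 26 pseudogene reads, 1.14% and 1.15% of its own. The share of reads that were placed in the gene although they came from a copy cannot be read from the table.

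Of 38 further genes of glucose uptake, the control of glycolysis, lactate export and pyruvate use, 26 had a read and 23 were tested. Of these 3 passed the adjusted p of 0.05, all higher in replicate 2 (5.05% of all genes passed), and the median log2 ratio of the 23 was 0.22. ALDOC, the aldolase C paralogue, had 124 and 302 reads, a log2 ratio of 1.13 (adjusted p = 4.10e-12, exact binomial test). SLC16A3, a lactate exporter, had 84 and 185 reads, a log2 ratio of 0.98 (adjusted p = 8.03e-06, exact binomial test), and PFKL, a phosphofructokinase subunit, had 261 and 387 reads, a log2 ratio of 0.42 (adjusted p = 0.00950, exact binomial test). These were far less abundant than the 10 enzymes: PFKL had the highest mean, 224 CPM ± 45.4 (SD, n = 2).

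The hexokinase and phosphofructokinase steps were each read from more than one gene. Hexokinase reads came from HK1, at 92.6 and 117 CPM, and HK2, at 38.2 and 52.3 CPM. Phosphofructokinase reads came from PFKL (192 and 256 CPM), PFKP (81.6 and 97.9 CPM) and PFKM (55.9 and 50.3 CPM), in this order in both libraries. ENO2, the neuronal enolase, had 49.3 and 57.6 CPM, and the glucose transporter SLC2A1 had 72.0 and 81.4 CPM. Another 12 genes of the list had no read in either library, among them LDHC and PKLR, the pyruvate kinase of liver and red cells, and at these depths the absence of reads is compatible with levels of at most 2.21 CPM (replicate 1) and 1.99 CPM (replicate 2).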

How the data were processed

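Whole-number read counts per transcript model and replicate were deposited by the authors without normalization, together with the exon number and length of each model, which are other, non-measured properties. The name of the table points to TALON; minimap2 and hg38 are listed in the submitters' processing notes, and read filters are not given in the sources used here. Both columns were matched to replicates by title. Gene positions, model types and exon structures came from GENCODE release 29 (GRCh38) by identifier. Reads of a gene were summed over its models and scaled to the library total (1360368 and 1510998). Log2 ratios used 0.5 added reads. Exact binomial and Fisher's exact tests were run over all genes with SciPy 1.17.1, adjusted by Benjamini-Hochberg, and checked on simulated data. They compare 2 libraries, not conditions, so no edgeR test of groups was possible. TMM factors came from edgeR 4.0.16 and size factors from DESeq2 1.42.0. The genes and lists were chosen with earlier results of these data known: the 10 genes, 38 further genes of the pathway, and in each gene the most read known model, known models with at least 20 reads and the most read other model. Further genes were named at 20 CPM in both libraries. A sentence says where a model was named outside this rule. The measures by exon number, the comparisons with AC093512.2 and the shares of deeply read genes that passed were added after the data had been examined.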

Additional observations from a re-analysis of the deposited data

How the results depend on the processing

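No paired analysis was possible because the design holds only 1 group. Leaving out a replicate returns the value of the other: the 10 genes then held 2.09 to 2.28% of a library, known models 41.3 to 60.2% of their reads, and ISM models 7.95 to 9.50% of PKM reads in 3 exons; the tests between libraries need both. Other counts of the M1 share could not be run, because no known PKM model with either exon had reads. Log2 ratios were reversed with known models only for GAPDH (-0.16), ENO1 (-0.40), PGK1 (-0.088), TPI1 (-0.17) and PGAM1 (-0.30), without genomic models for PKM (-0.082), LDHB (0.057) and PGAM1 (-0.25), and for PKM under TMM (-0.0084) and DESeq2 size factors (-0.013); the cause was not tested. With known models only, 1042 of all genes passed in place of 537. The number of the 10 genes that passed was 5 or 6 under each alternative tried. For the most read model, ISM, NIC and NNC models included, 1409 of all genes passed in place of 234 and all 10 of the glycolysis genes in place of 8. The difference for PKM was -16.9 percentage points, but for another model: ENCODEHT000369571 was then the most read, in place of PKM-214. More models and genes were tested in this setting. The known share kept its direction and its call in all 10 genes without genomic models and with models of at least 5 reads. Depth limits GPI and PGK1 most, with 672 and 635 reads in replicate 1.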

Other observations

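The 10 genes differed in how many models their reads were spread over. GAPDH had 291 models, PKM 271, ENO1 226 and GPI 174, while ALDOA had 30 and PGAM1 31. Between 25.9% (GPI) and 43.3% (ALDOA) of the models of a gene had a read in both libraries, and 184 of the GAPDH models rested on a single read. GPI and PGK1 had the fewest reads of the 10 genes, and GPI had more models than 6 of the others.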
